A study of Mus musculus with 20 samples.

Results

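A set of 9 genes, which mammals express mainly from the copy inherited from the father, were measured in cultured mouse pluripotent cells: Peg3, Usp29, Peg10, Sgce, Mest, Nnat, Snrpn, Ndn and Inpp5f. They were taken by name, all were among the 21361 genes of the count table, and the rule that lists them uses no measured value, although earlier results of these data were known when it was written. Each was read as CPM (a gene's reads, scaled to the total counted reads of its library) in 20 libraries of poly(A) RNA. EpiLC DKO (n = 3) and EpiLC Host (n = 2) are epiblast-like cells, a stage between naive stem cells and primed epiblast, made from PGC-ESC DKO lines 1 to 3 and from ESC Host lines 3 and 4. PGC-ESC BaxKO (n = 5) and PGC-ESC DKO (n = 3) are lines labelled as stem cells derived from primordial germ cells. The BaxKO lines lack Bax, which opens the mitochondrial membrane in apoptosis, and the DKO lines carry a double knockout of Puma and Noxa, activators of the same pathway. ESC BaxKO (n = 2, derived earlier) and ESC BaxHet (n = 1, heterozygous for Bax) are embryonic stem cell lines, and ESC Host (n = 4) are wildtype lines from host embryos. All BaxKO and BaxHet lines carry the strain label C57Bl6J/129SvEvRoEp, and all DKO and Host lines the label C57Bl6J, so Bax genotype and strain cannot be told apart. Likewise, origin and the double knockout cannot be told apart between PGC-ESC DKO and ESC Host. The growth protocol is the same text for all libraries: N2B27 medium on gelatin with LIF, the GSK3 inhibitor CHIR99021 and the MEK inhibitor PD0325901. The sources used here do not give the steps that made EpiLCs.

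At an imprinted gene, DNA methylation set in the egg or the sperm is kept through the cleavage stages and silences one parental copy, so the gene is read from the other. The germ line erases these marks, and primordial germ cells are the stage at which this happens. Stem cells in culture can also lose or gain imprint methylation, and imprinted transcripts are used to follow it. The counts are per gene and hold no information on alleles, so which parental copy gave the reads was not measured.

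Promoter sequence from RefSeq (GRCm38.p6, the build that mm10 names) was matched for 7 of the 9 genes, not for Peg10 and Sgce. Stretches without annotated exons are shown because their CpG pairs, in capitals, are the letters at which imprint methylation would sit. Methylation itself was not measured in these libraries. Each is the plus strand, 5′ to 3′. The first is the whole space between the starts of Peg3 and Usp29, which face away from each other, at chr7:6730463-6730558. The next lies just before Nnat, chr2:157560008-157560077, inside the span of another gene, Blcap. The last lies before an inner start of Mest, chr6:30737800-30738049.
Peg3-Usp29 gap: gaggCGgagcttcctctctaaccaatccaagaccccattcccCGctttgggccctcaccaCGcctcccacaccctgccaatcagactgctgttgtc
Nnat: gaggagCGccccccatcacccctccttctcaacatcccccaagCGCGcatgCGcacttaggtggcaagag
Mest: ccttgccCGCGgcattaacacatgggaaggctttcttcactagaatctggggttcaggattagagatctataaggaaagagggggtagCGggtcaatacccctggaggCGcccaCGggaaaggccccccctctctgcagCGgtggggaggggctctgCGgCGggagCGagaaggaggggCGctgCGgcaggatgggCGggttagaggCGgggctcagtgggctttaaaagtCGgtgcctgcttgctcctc

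The gap between Peg3 and Usp29 held 3 CpG pairs in 96 bases, the Nnat stretch 4 in 70 bases and the Mest stretch 14 in 250 bases. Searched on both strands, TGCCGC, the motif that the zinc finger protein ZFP57 binds when it is methylated, was found at 2 places in the Mest stretch and at 0 in the other stretches printed. Among 32851 annotated promoter windows of 300 bases, 11.6% held TGCCGC and the median number of CpG pairs was 7. The full 300-base windows of Mest's inner start, Nnat and Usp29 held 17 CpG pairs each, more than 68.6% of all windows. In such full windows TGCCGC was found at 2 places at Mest's inner start, at 1 at Nnat and at 1 at one of the Snrpn starts, and at 0 at Peg3, Usp29, Ndn and Inpp5f.

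Library totals ran from 14255399 to 33376660 counts. Bax ran from 1.66 to 2.43 CPM in the 7 BaxKO libraries, against 229 to 533 CPM in the DKO and Host libraries, and stood at 109.6 CPM in ESC BaxHet. Noxa (Pmaip1) ran from 1.26 to 5.69 CPM in the 6 DKO libraries, against 20.2 to 333 CPM in the Host libraries. It was also low in some lines not labelled as Noxa knockouts, at 6.27 to 9.54 CPM in ESC BaxKO and 4.34 to 43.4 CPM in PGC-ESC BaxKO. A low Noxa level was therefore not particular to the DKO libraries. Puma (Bbc3) overlapped between PGC-ESC DKO and ESC Host, at 27.5 to 49.2 and 38.5 to 49.7 CPM. The sources used here do not say which part of Puma was deleted, so its reads do not check that label. Reads of an EGFP reporter ran from 568.2 to 9722 CPM in the DKO, BaxKO and BaxHet libraries, against at most 0.547 CPM in the Host libraries, so the reporter too differs between those groups. The summed level of 7 stem cell genes (Pou5f1, Nanog, Sox2, Zfp42, Esrrb, Klf4 and Tfcp2l1) was 984 to 1419 CPM in EpiLC libraries, against 5139 to 6272 CPM in the other 15. The summed level of 5 EpiLC genes (Fgf5, Otx2, Pou3f1, Dnmt3b and Dnmt3a) was 1576 to 3191 CPM in EpiLC libraries, against 128 to 288 CPM. Dnmt3b and Dnmt3a were the largest parts of that sum by group mean. All 5 were called higher in EpiLC DKO and 4 in EpiLC Host. There Otx2 was not called (edgeR, log2 fold change 1.39, adjusted p = 0.0968). Libraries fell into a set with a low level of the ribosomal precursor Rn45s (9 libraries, all PGC-ESC BaxKO among them) and a set with a high level (11 libraries, all EpiLC and PGC-ESC DKO among them). ESC lines were in both. A set of 4 Y-linked genes had mean levels of 4.93 CPM in EpiLC Host 4 and 3.84 CPM in ESC Host 4, and were at 0 in the other Host libraries.

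**Figure D1:**
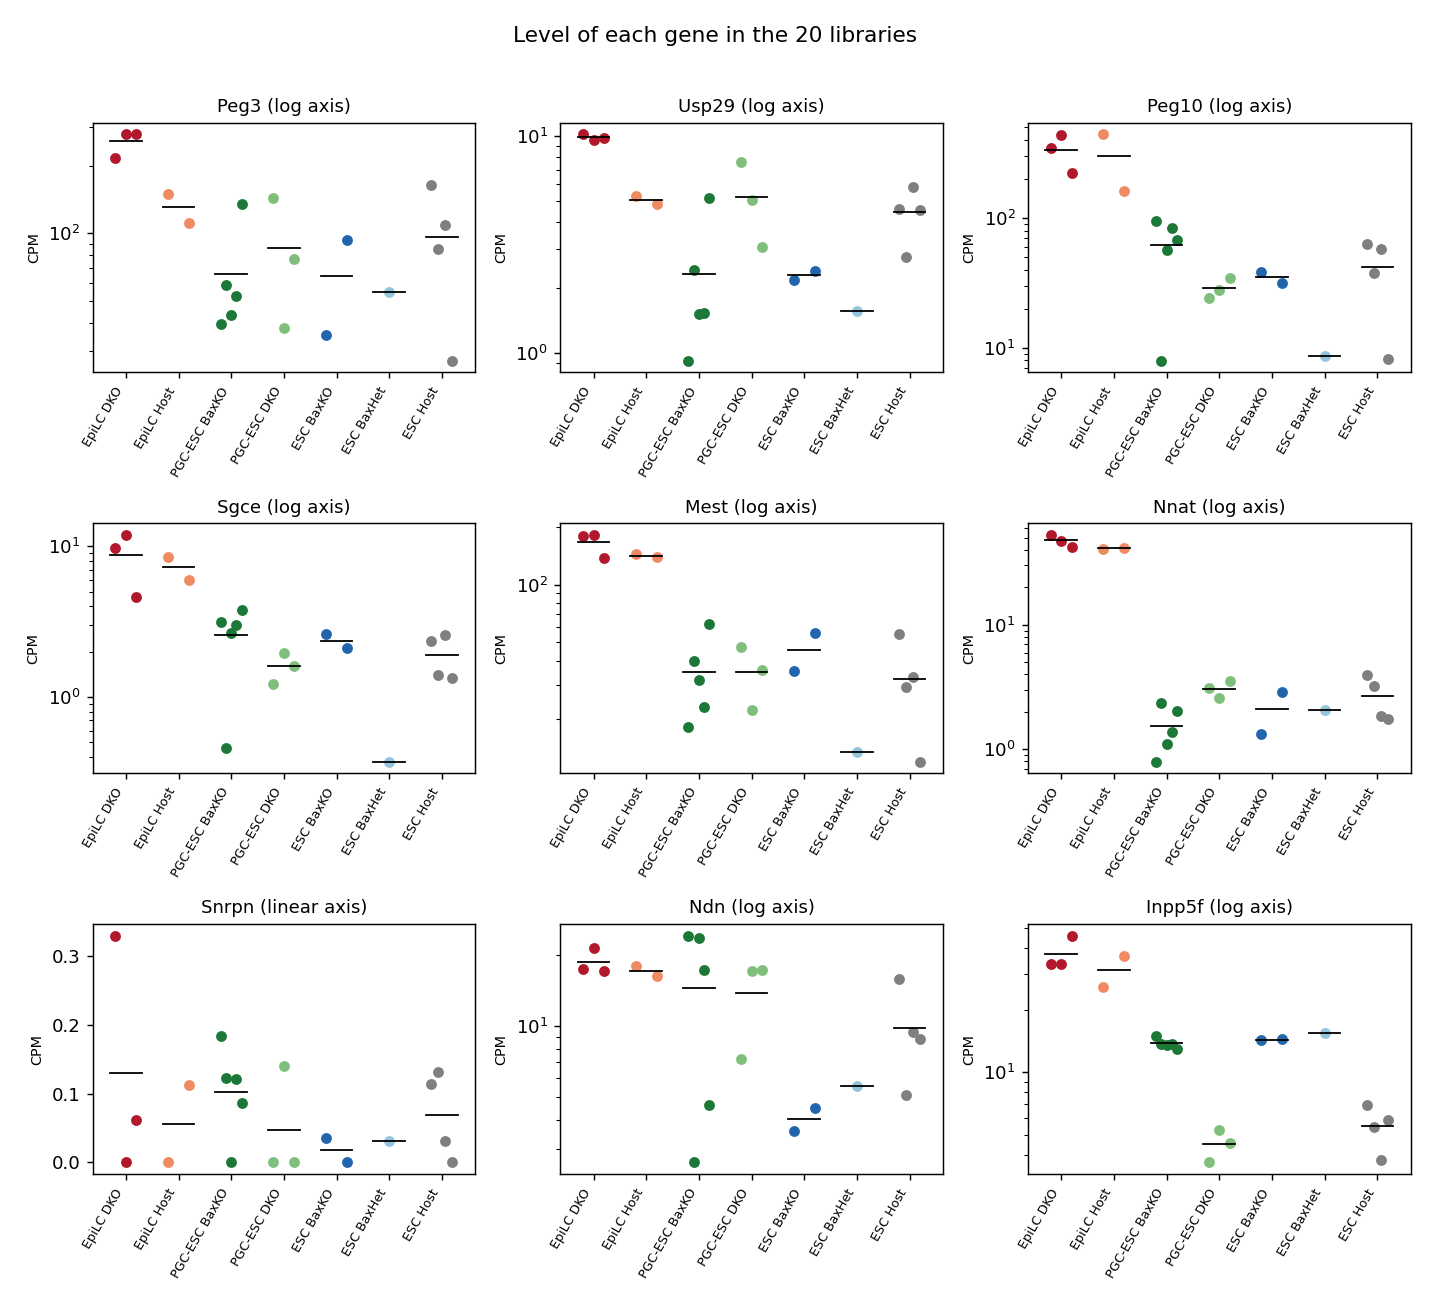
Level of each of the 9 genes in every library (points; CPM, log axis except Snrpn, which has a linear axis), by group, with the group mean as a bar. Peg10, Sgce, Mest, Nnat and Inpp5f were higher in each of the 5 EpiLC libraries than in any of the 15 others, and Snrpn stayed at or below 0.33 CPM throughout.

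In EpiLCs, most of these genes were several times more abundant than in the stem cell lines they were made from. Against PGC-ESC DKO, 6 of the 8 tested genes were called higher in EpiLC DKO and 0 lower, where 25.1% of all 16363 tested genes were called higher and 22.5% lower. Against ESC Host, 5 of the 8 were called higher in EpiLC Host and 0 lower, where 22.4% were called higher and 21.7% lower. The median log2 fold change of the 8 was 2.15 in EpiLC DKO, against 0.01 over all tested genes, and 1.89 in EpiLC Host, against -0.03. Groups did not overlap, with the EpiLC libraries above, for 7 of the 8 in the DKO comparison and for 6 of the 8 in the Host comparison (39.9% and 33.5% of all tested genes). Calls are at an adjusted p under 0.05, by edgeR's quasi-likelihood test on all libraries with Benjamini-Hochberg adjustment over the 16363 genes, and each change below is a log2 fold change ± its standard error. In bulk RNA, fewer cells expressing a gene and less of its RNA per cell cannot be told apart.

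Nnat, which encodes neuronatin, a small proteolipid of the endoplasmic reticulum studied in neurons and in insulin-secreting cells, lies at chr2:157560078-157562525. It stood at 52.9, 47.6 and 42.4 CPM in EpiLC DKO libraries 1 to 3, against 3.11, 2.60 and 3.54 CPM in PGC-ESC DKO 1 to 3. In EpiLC Host 3 and 4 it stood at 41.1 and 41.7 CPM, against 3.94, 3.26, 1.86 and 1.74 CPM in ESC Host 1 to 4. Every EpiLC library was above every stem cell library by a wide margin. Nnat was 3.75 ± 0.37 higher on the log2 scale in EpiLC DKO (adjusted p = 3.05e-07) and 3.82 ± 0.34 higher in EpiLC Host (adjusted p = 1.25e-07). These were the largest changes among the 8 genes in both comparisons, at 13.5-fold and 14.1-fold. Blcap, the gene whose body contains Nnat, was lower in the same libraries, at -0.63 ± 0.13 in EpiLC DKO and -0.66 ± 0.14 in EpiLC Host (adjusted p = 0.000767 and 0.00111). As the strand setting of the counting is not given, how reads of Nnat and Blcap were divided where they overlap is not known.

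Peg10, a gene derived from a retrotransposon and needed for the placenta (chr6:4747306-4760517), stood at 350.2, 437 and 222 CPM in EpiLC DKO 1 to 3, against 24.4, 27.8 and 34.3 CPM in PGC-ESC DKO 1 to 3. It stood at 446 and 162 CPM in EpiLC Host 3 and 4, against 63.4, 37.6, 57.8 and 8.21 CPM in ESC Host 1 to 4. Both EpiLC groups were above the stem cell groups set against them without overlap, and ESC Host 4 was the lowest of the Host libraries. The change was 3.34 ± 0.69 in EpiLC DKO (adjusted p = 0.000732) and 2.76 ± 0.65 in EpiLC Host (adjusted p = 0.00213). Without EpiLC Host 3 the Host change was 1.85 with an adjusted p of 0.0771, which ended that call.

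Sgce encodes epsilon-sarcoglycan, a membrane protein whose paternal loss causes myoclonus-dystonia in humans. Its start faces that of Peg10 from 101 bases away on the opposite strand (chr6:4674350-4747204). Sgce stood at 9.74, 11.9 and 4.603 CPM in EpiLC DKO 1 to 3, against 1.23, 1.96 and 1.61 CPM in PGC-ESC DKO 1 to 3. It stood at 8.55 and 5.96 CPM in EpiLC Host 3 and 4, against 2.35, 1.41, 2.57 and 1.34 CPM in ESC Host 1 to 4. The groups did not overlap in either comparison, and EpiLC DKO 3 was the lowest EpiLC library for Sgce. Sgce changed by 2.26 ± 0.53 in EpiLC DKO (adjusted p = 0.00204) and by 1.77 ± 0.51 in EpiLC Host (adjusted p = 0.00907). Without EpiLC Host 3 the Host change was 1.49 (adjusted p = 0.0928), which was no longer a call.

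Mest, a hydrolase-fold enzyme long used as a marker of imprinting in mesoderm, lies at chr6:30733506-30748466. Its end overlaps that of Copg2, on the opposite strand, by 913 bases, and the sources used here do not say whether the counting used strand. Mest stood at 178, 182 and 137 CPM in EpiLC DKO 1 to 3, against 47.4, 22.3 and 35.8 CPM in PGC-ESC DKO 1 to 3. It stood at 144 and 139 CPM in EpiLC Host 3 and 4, against 55.5, 29.4, 32.9 and 11.99 CPM in ESC Host 1 to 4. No EpiLC library fell below 137 CPM and none of the 15 other libraries passed 62.5 CPM. The changes were 2.03 ± 0.44 in EpiLC DKO and 2.02 ± 0.43 in EpiLC Host (adjusted p = 0.00102 in both), about 4.10-fold and 4.04-fold.

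Inpp5f, an inositol phosphatase of endosomes, lies at chr7:128611181-128696436. In mouse brain a shorter transcript of it is the imprinted one, and counts per gene do not separate the transcripts. Inpp5f stood at 33.4, 33.5 and 46.0 CPM in EpiLC DKO 1 to 3, against 3.66, 5.26 and 4.57 CPM in PGC-ESC DKO 1 to 3. In EpiLC Host 3 and 4 it stood at 26.0 and 36.5 CPM, against 6.97, 5.41, 3.77 and 5.87 CPM in ESC Host 1 to 4. All 5 EpiLC libraries lay above all 15 others, whose highest was 15.6 CPM in ESC BaxHet. It changed by 2.87 ± 0.23 in EpiLC DKO (adjusted p = 3.57e-08) and by 2.37 ± 0.22 in EpiLC Host (adjusted p = 1.95e-07).

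Peg3 encodes a large zinc finger protein tied in mice to growth and maternal behaviour (chr7:6703892-6730462), and shares its start region, printed above, with Usp29, of the ubiquitin protease family (chr7:6730559-6967220). Peg3 stood at 218, 277 and 278 CPM in EpiLC DKO 1 to 3, against 144, 38.0 and 76.7 CPM in PGC-ESC DKO 1 to 3. It stood at 149.8 and 112 CPM in EpiLC Host 3 and 4, against 164, 85.3, 109 and 27.0 CPM in ESC Host 1 to 4. The DKO groups did not overlap, whereas ESC Host 1 was above both EpiLC Host libraries. Peg3 was called higher in EpiLC DKO at 1.38 ± 0.56 (adjusted p = 0.0482), close to the threshold. The call ended without any one of EpiLC DKO 1, 2 or 3 or PGC-ESC DKO 2 or 3, at adjusted p-values of 0.0648 to 0.178 and changes of 1.05 to 1.496. In EpiLC Host the change was 0.34 ± 0.57 (adjusted p = 0.659).

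Usp29 stood at 10.2, 9.58 and 9.77 CPM in EpiLC DKO 1 to 3, against 7.60, 5.05 and 3.09 CPM in PGC-ESC DKO 1 to 3. It stood at 5.28 and 4.86 CPM in EpiLC Host 3 and 4, against 4.62, 2.77, 5.81 and 4.58 CPM in ESC Host 1 to 4. The EpiLC DKO libraries were above their parents, and the EpiLC Host libraries lay among the ESC Host libraries. The change of 0.69 ± 0.47 in EpiLC DKO was not called (adjusted p = 0.243). With the parent cell line as a block it was 0.75 and was called (adjusted p = 0.0423). In EpiLC Host Usp29 differed by 0.03 ± 0.50 (adjusted p = 0.968), and the sign turned to -0.26 with the line as a block.

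Ndn, which encodes necdin, a MAGE family protein of neurons that lies in the region lost in Prader-Willi syndrome (mouse chr7:62348277-62349928), stood at 17.3, 21.3 and 17.0 CPM in EpiLC DKO 1 to 3, against 7.26, 17.0 and 17.2 CPM in PGC-ESC DKO 1 to 3. It stood at 17.9 and 16.3 CPM in EpiLC Host 3 and 4, against 15.9, 5.06, 9.43 and 8.80 CPM in ESC Host 1 to 4. The EpiLC libraries formed a narrow band that PGC-ESC DKO 2 and 3 also reached. Neither change was called, at 0.23 ± 0.59 in EpiLC DKO (adjusted p = 0.776) and 0.66 ± 0.62 in EpiLC Host (adjusted p = 0.403), although both EpiLC Host libraries were above all 4 ESC Host libraries.

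Snrpn, a spliceosome protein gene at the imprinting centre of the same region (chr7:59982495-60450177), had 38 reads over all 20 libraries and was not tested. It had 11, 0 and 1 reads in EpiLC DKO 1 to 3, 0 and 3 in EpiLC Host 3 and 4, and from 0 to 4 in each of the 15 stem cell libraries. EpiLC DKO 1 held the most, at 0.33 CPM. Snurf, which overlaps Snrpn on the same strand (chr7:59982495-60005199), was not among the genes of the count table under that name. The level of their shared transcript therefore cannot be read from the Snrpn counts.

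**Figure D2:**
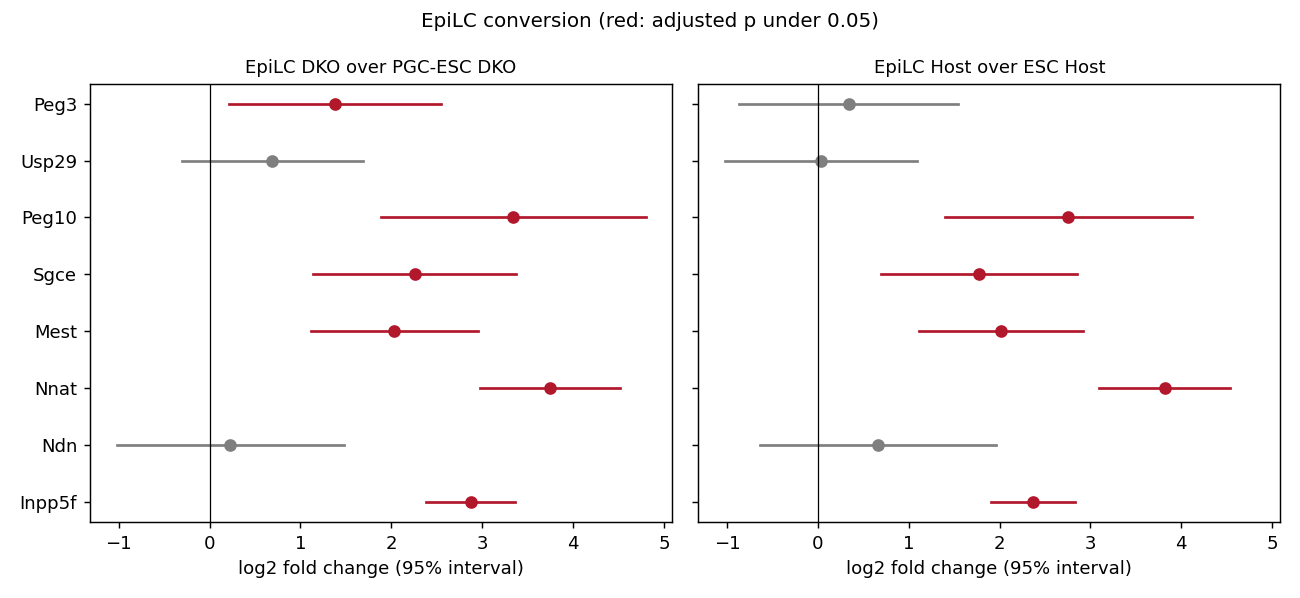
Log2 fold change of the 8 tested genes with 95% intervals (horizontal lines), EpiLC DKO over PGC-ESC DKO on the left and EpiLC Host over ESC Host on the right, with an adjusted p under 0.05 in red. Nnat, Peg10, Sgce, Mest and Inpp5f were called in both panels, Peg3 on the left at 1.38, and the intervals of Ndn crossed 0 in both.

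Because every EpiLC library has a parent line in the series, the change could also be read line by line. In all 5 lines, Nnat, Peg10, Sgce, Mest, Inpp5f and Peg3 were higher in the EpiLCs than in the parent. Here library sizes were scaled by TMM, as in the test, so these ratios differ somewhat from those of the CPM above. The log2 ratios ran from 3.47 to 4.26 for Nnat, from 2.60 to 3.97 for Peg10 and from 1.39 to 2.702 for Sgce. They ran from 1.70 to 3.19 for Mest and from 2.30 to 3.22 for Inpp5f. Peg3 ratios were uneven, at 0.39, 2.56 and 1.77 in DKO lines 1 to 3 and 0.31 and 1.71 in Host lines 3 and 4. The small ratios belonged to the lines whose parent already had over 100 CPM of Peg3. Usp29 was higher in all 3 DKO lines (0.21 to 1.55) and lower in both Host lines (-0.29 and -0.24), although by CPM of the library total EpiLC Host 4 was above its parent, at 4.86 against 4.58 CPM. Ndn was higher in 4 of the 5 lines, by up to 1.04 in DKO line 1, and stood at -0.10 in DKO line 3.

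Some markers of other cell types moved in the same libraries. Of 6 neuroectoderm genes, 4 were called higher and 1 lower in both EpiLC comparisons, and their sum was 201 to 308 CPM in EpiLC libraries, against 93.3 to 183 CPM in the other 15. Sox1 and Nes led the higher calls, and Neurog2, also called higher in both, stayed at or below 1.11 CPM in every EpiLC library. Tubb3 was the gene called lower, at -1.29 ± 0.24 in EpiLC DKO and -1.02 ± 0.26 in EpiLC Host. Of 7 fibroblast and feeder genes, 4 were tested and 3 were called higher in both comparisons, with a sum of 15.5 to 22.8 CPM in EpiLC libraries, against 1.74 to 15.7 CPM. Thy1 and Col1a1 held most of it, although Col1a1 was the tested gene not called in either comparison, and Lum and Postn were at or near 0. Of 6 primitive endoderm genes 0 were called in either comparison by edgeR, and 2 in EpiLC DKO and 0 in EpiLC Host had an unadjusted p under 0.05, with a sum of 6.03 to 12.8 CPM in EpiLC libraries, against 3.64 to 13.7 CPM. Of 5 tested trophoblast genes, 1 was called higher and 2 lower in EpiLC DKO and 1 higher and 1 lower in EpiLC Host, with a sum of 30.6 to 42.9 CPM in EpiLC libraries, against 17.95 to 54.97 CPM. These counts stand beside the 25.1% and 22.4% of all tested genes called higher and the 22.5% and 21.7% called lower. The part of these cell types in the change of the imprinted genes was not tested.

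Between the EpiLC groups themselves, 0 of the 8 genes were called in edgeR or in DESeq2, and 0 had an unadjusted p under 0.05, where 0.0428% of all tested genes were called. All 8 changes were above 0 in EpiLC DKO, from 0.13 for Ndn to 0.99 ± 0.63 for Peg3. Their median was 0.26, against 0.005 over all tested genes, and the share of all genes above 0 was not counted. The 8 were not independent of each other, as Peg3 and Usp29 share a start region and the starts of Peg10 and Sgce adjoin. Peg3, Usp29 and Nnat did not overlap between the groups, with EpiLC DKO above (11.7% of all tested genes). For Usp29 the EpiLC DKO libraries held 9.58 to 10.2 CPM, against 4.86 and 5.28 CPM in EpiLC Host, a change of 0.97 ± 0.54 with an adjusted p of 1. The difference between the DKO and the Host response to EpiLC conversion ran from -0.43 ± 0.86 for Ndn to 1.04 ± 0.81 for Peg3. It was called for 0 of the 8 in edgeR and in DESeq2, with 0 at an unadjusted p under 0.05 (0.00611% of all genes were called). This comparison and the 2 EpiLC comparisons above share their libraries.

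PGC-ESC lines were set against ESC lines within each strain label to ask whether lines of germ cell origin differ. In PGC-ESC BaxKO against ESC BaxKO, 0 of the 8 genes were called in edgeR or in DESeq2, and 1 had an unadjusted p under 0.05, where 0.0367% of all tested genes were called. In PGC-ESC DKO against ESC Host, 0 were called in either tool and 0 had an unadjusted p under 0.05 (0.116% of all genes). Averaged over both, 0 were called in either tool and 1 had an unadjusted p under 0.05 (0.0794%), and the difference between the origin effects was called for 0, with 0 under 0.05 unadjusted (0.0794%). All these shares are of genes called at an adjusted p under 0.05. The share of all genes with an unadjusted p under 0.05 was not counted, so the 1 gene has no background beside it. No gene of the 8 separated the groups without overlap in either comparison, where 5.7% of all genes did so on the higher side and 6.45% on the lower side in the Bax lines, and 1.15% and 4.46% in the C57Bl6J lines. Apart from Ndn, changes ran from -0.44 for Nnat to 0.80 for Peg10 in the Bax lines, and from -0.43 for Peg10 to 0.31 for Usp29 in the C57Bl6J lines. Intervals were wide for most. For Peg10 the 95% interval ran from -0.63 to 2.23 in the Bax lines, whereas for Inpp5f it ran from -0.54 to 0.38.

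Ndn was the gene with the unadjusted p under 0.05. It stood at 24.1, 2.63, 23.5, 17.3 and 4.63 CPM in PGC-ESC BaxKO 1 to 5, against 3.58 and 4.49 CPM in ESC BaxKO 1 and 2. PGC-ESC BaxKO 1, 3 and 4 were well above both ESC lines, and the other two lay beside them. The change was 1.80 ± 0.69 (edgeR, unadjusted p = 0.0171, adjusted p = 0.463). Averaged with the C57Bl6J lines it was 1.18 ± 0.44 (edgeR, unadjusted p = 0.0145, adjusted p = 0.566), and the C57Bl6J lines alone gave 0.56 ± 0.56 (adjusted p = 0.868).

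Other genes moved with Ndn among the 5 PGC-ESC BaxKO lines. Peg12, a paternally expressed gene of the same region that was picked after its values were seen, stood at 47.4, 2.63, 45.3, 26.0 and 1.90 CPM in lines 1 to 5. Against the ESC BaxKO lines Peg12 changed by 3.21 ± 1.17. Magel2 and Mkrn3, paternally expressed genes that lie between Ndn and Peg12, changed by -0.65 ± 0.86 and 0.35 ± 0.33. None of these was called, and Magel2 was low in both groups. A change shared by the whole region was not tested. Dusp9, an X-linked phosphatase used as a gauge of X dosage in stem cells, stood at 223.5, 13.3, 216, 106 and 16.1 CPM. The 4 Y-linked genes averaged 53.5 and 53.0 CPM in lines 2 and 5 and 0 in lines 1, 3 and 4. Lines 1, 3 and 4 were therefore high in Ndn, Peg12 and Dusp9 and had no Y-linked reads, and lines 2 and 5 were the reverse. The 5 lines fell into the same sets over all genes, and the share of genes with this split was not counted. With the Y-linked level as a covariate, the Ndn change was 1.20 with an adjusted p of 1. ESC BaxKO 1 and 2, against which that change was taken, both had Y-linked reads (61.1 and 47.0 CPM on average) and 11.3 and 16.1 CPM of Dusp9. The Ndn comparison in the Bax lines was therefore not balanced for Y-linked reads. In other lines the pairing did not hold throughout. ESC BaxHet had no Y-linked reads, 5.56 CPM of Ndn and 58.0 CPM of Dusp9. PGC-ESC DKO 3 had Y-linked reads (42.8 CPM on average), 17.2 CPM of Ndn and 51.9 CPM of Dusp9. ESC Host 2 had no Y-linked reads, 5.06 CPM of Ndn and 17.5 CPM of Dusp9, so there Dusp9 was low along with Ndn.

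**Figure D3:**
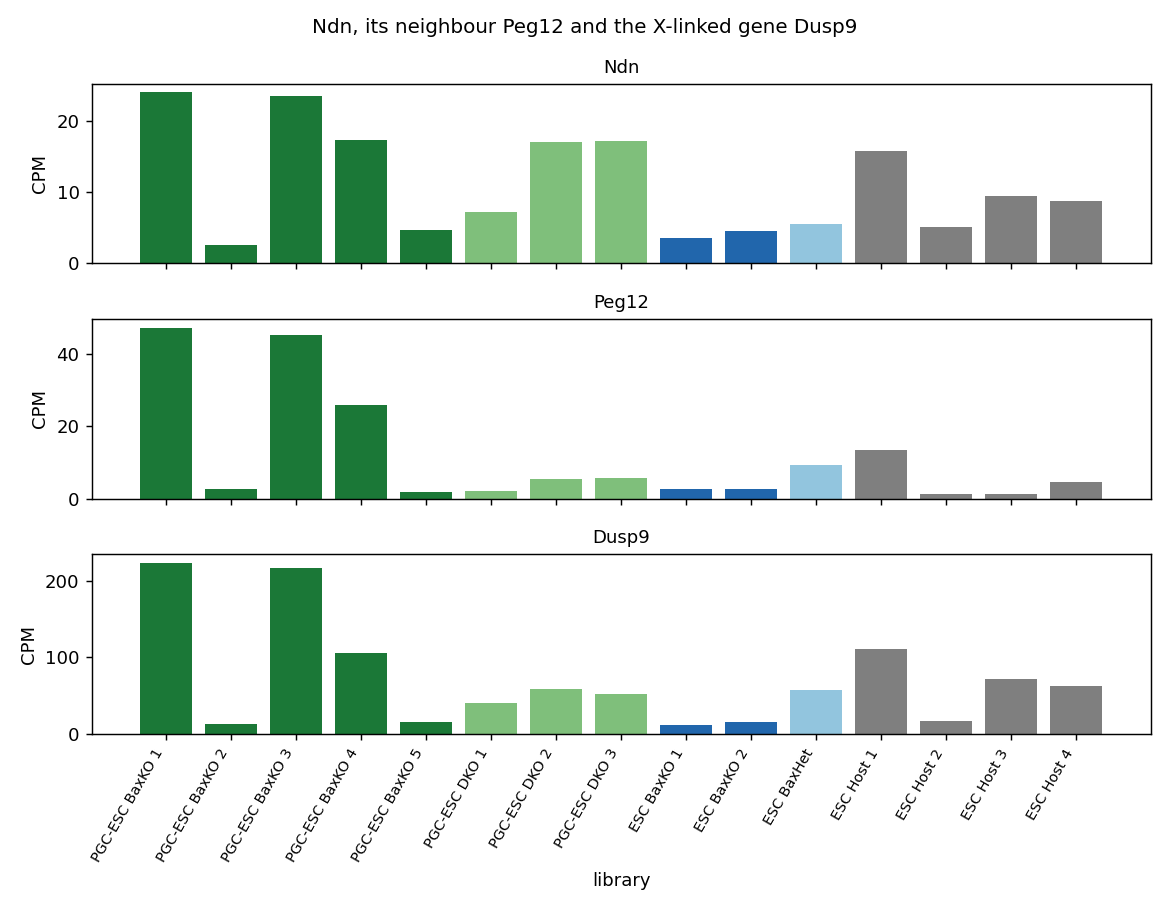
Level of Ndn, its neighbour Peg12 and the X-linked gene Dusp9 (bars, CPM, axis from 0) in each of the 15 stem cell libraries. PGC-ESC BaxKO 1, 3 and 4 were high in all 3 genes, while PGC-ESC DKO 2 and 3 reached 17.0 and 17.2 CPM of Ndn with at most 5.79 CPM of Peg12.

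Between the strain labels, Inpp5f differed most clearly. It stood at 15.1, 13.7, 13.5, 13.8 and 13.1 CPM in PGC-ESC BaxKO 1 to 5, against 3.66, 5.26 and 4.57 CPM in PGC-ESC DKO 1 to 3. It stood at 14.4 and 14.5 CPM in ESC BaxKO, against 6.97, 5.41, 3.77 and 5.87 CPM in ESC Host. All 7 BaxKO libraries, and ESC BaxHet at 15.6 CPM, were above all 7 DKO and Host stem cell libraries. The change was 1.46 ± 0.21 in PGC-ESC BaxKO against PGC-ESC DKO (adjusted p = 0.000285) and 1.32 ± 0.22 in ESC BaxKO against ESC Host (adjusted p = 0.00244). When only the 6 libraries of ESC BaxKO and ESC Host entered the fit, that p was 0.0871 at a change of 1.29. Inpp5f was the 1 gene of the 8 called higher in each comparison, where 12.2% and 2.76% of all tested genes were called higher and 22.2% and 14.8% did not overlap on that side. Between ESC BaxKO and ESC Host, 0 of the 8 were called lower (2.26% of all genes). Bag3, a co-chaperone gene next to Inpp5f, was also higher in the BaxKO lines, by 2.02 ± 0.15 against PGC-ESC DKO and 1.36 ± 0.16 against ESC Host (adjusted p = 2.96e-07 and 8.94e-05).

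Usp29 and Nnat were called lower in PGC-ESC BaxKO than in PGC-ESC DKO, 2 of the 8, where 11.4% of all tested genes were called lower. Usp29 stood at 0.920, 2.41, 1.52, 1.53 and 5.19 CPM in PGC-ESC BaxKO 1 to 5, against 7.60, 5.05 and 3.09 CPM in PGC-ESC DKO. PGC-ESC BaxKO 5 lay inside the DKO range. The change was -1.34 ± 0.42 (adjusted p = 0.0300). The call ended when any of PGC-ESC BaxKO 1, 3 and 4 and of PGC-ESC DKO 1 and 2 was left out alone (changes of -1.34 to -0.97, adjusted p = 0.0565 to 0.163). Nnat stood at 0.798, 2.35, 1.10, 1.37 and 2.03 CPM in PGC-ESC BaxKO 1 to 5, against 3.11, 2.60 and 3.54 CPM in PGC-ESC DKO, without overlap (9.65% of all genes did not overlap on that side). Its change was -1.13 ± 0.32 (adjusted p = 0.0180), and without PGC-ESC DKO 3 it was -1.06 (adjusted p = 0.0530). All PGC-ESC BaxKO libraries were in the low Rn45s set and all PGC-ESC DKO libraries in the high one. With that set as a term in the fit Usp29 stood at -0.83 (adjusted p = 0.617), Nnat at -1.32 (adjusted p = 0.226), and Inpp5f was the gene of the 8 still called. Between ESC BaxKO and ESC Host, Usp29 and Ndn did not overlap, with ESC BaxKO below (11.7% of all genes), yet neither was called, at -1.06 ± 0.54 and -1.35 ± 0.69 (adjusted p = 0.269 and 0.268). The EpiLC DKO and PGC-ESC BaxKO comparisons share the PGC-ESC DKO libraries.

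Ordered by group mean, the 2 EpiLC groups led for each of the 8 genes except Usp29. Inpp5f formed 3 steps, at 37.7 ± 7.26 CPM in EpiLC DKO and 31.3 ± 7.42 CPM in EpiLC Host, then 14.4 ± 0.0834 CPM in ESC BaxKO and 13.8 ± 0.759 CPM in PGC-ESC BaxKO, then 5.50 ± 1.33 CPM in ESC Host and 4.497 ± 0.803 CPM in PGC-ESC DKO (SD). Groups within a step overlapped, and no library crossed from one step to another. For Peg10 the means were 337 ± 108 CPM in EpiLC DKO and 304 ± 200.3 CPM in EpiLC Host, then 62.1 ± 33.6 CPM in PGC-ESC BaxKO, 41.8 ± 25.0 CPM in ESC Host, 35.0 ± 4.65 CPM in ESC BaxKO and 28.8 ± 5.04 CPM in PGC-ESC DKO. The EpiLC groups overlapped each other, and the ranges of PGC-ESC BaxKO and of ESC Host each took in the ranges of the groups below them. For Usp29 the order was 9.85 ± 0.328 CPM in EpiLC DKO, 5.25 ± 2.26 CPM in PGC-ESC DKO, 5.07 ± 0.292 CPM in EpiLC Host, 4.44 ± 1.25 CPM in ESC Host, 2.31 ± 1.69 CPM in PGC-ESC BaxKO and lastly 2.28 ± 0.154 CPM in ESC BaxKO, with EpiLC DKO the one group that overlapped no other.

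Lines of one group differed from each other more in these genes than in most. The residual standard deviation of log2 CPM between lines of a group was 1.06 for Peg10, 0.91 for Ndn, 0.785 for Peg3, 0.746 for Sgce, 0.628 for Usp29, 0.607 for Mest and 0.469 for Nnat. The median over all tested genes was 0.342, and 98.3% of them varied less than Peg10 and 96% less than Ndn. Inpp5f was the exception, at 0.263, with 37.1% of genes below it. Within the 15 stem cell libraries, Peg10 spanned 11.95-fold, from 7.95 CPM in PGC-ESC BaxKO 2 to 94.98 CPM in PGC-ESC BaxKO 1. Sgce spanned 10.1-fold, Ndn 9.17-fold, Usp29 8.25-fold and Peg3 6.06-fold.

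**Figure D4:**
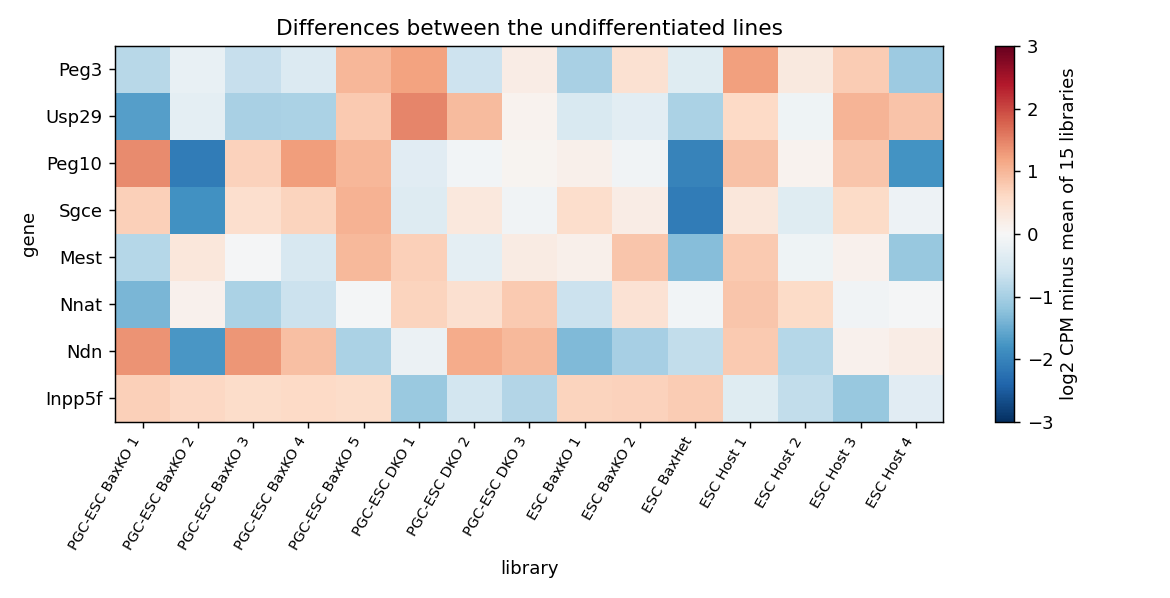
Difference of each gene's log2 CPM from its own mean over the 15 stem cell libraries (colour, red above and blue below; rows are genes, columns are libraries). PGC-ESC BaxKO 2, ESC BaxHet and ESC Host 4 were low for Peg10, and the row of Inpp5f splits by BaxKO and BaxHet lines against DKO and Host lines.

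The low libraries were not the same for every gene. PGC-ESC BaxKO 2 and ESC BaxHet were the lowest in Sgce, at 0.459 and 0.373 CPM, where PGC-ESC BaxKO 5 had 3.76 CPM. The same PGC-ESC BaxKO 2 library had 59.1 CPM of Peg3, second among the 5 lines of its group. ESC Host 4 was the lowest of all 15 in Peg3, at 27.0 CPM, and in Mest, at 11.99 CPM, and it also had the lowest TMM factor (0.844) and the highest Rn45s level (5.19% of its reads). PGC-ESC BaxKO 1 was the highest in Peg10 and in Ndn and the lowest in Usp29 and in Nnat.

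Some pairs of genes followed each other across the lines. Over the 15 stem cell libraries, Peg10 and Sgce, whose starts adjoin, correlated at 0.870 by Pearson's r and 0.907 by Spearman's rho. Without PGC-ESC BaxKO 2 and ESC BaxHet, which lie far below the rest, r was 0.717. It was 0.961 among 9 low Rn45s libraries and 0.625 among 6 high ones. Peg3 and Mest, on different chromosomes, had an r of 0.747 and a rho of 0.711, with 0.676 without ESC Host 1 and PGC-ESC DKO 1. Peg3 and Usp29, which share a start region, had an r of 0.556, at 0.875 among the low Rn45s libraries and 0.0933 among the high ones, and 0.400 without ESC Host 1 and PGC-ESC DKO 1. Usp29 and Nnat (r = 0.678) and Peg3 and Nnat (r = 0.632), which share no locus, had higher values over these 15 libraries. Over all 28 pairs, r ran from -0.745 for Usp29 and Inpp5f to 0.870, with a median of 0.0174. Differences between groups enter these values. Within groups, r was 0.382 for Usp29 and Nnat, below Peg3 and Usp29 at 0.481, and 0.644 for Peg3 and Nnat. It was -0.19 for Usp29 and Inpp5f, 0.848 for Peg10 and Sgce and 0.925 for Peg3 and Mest. These are descriptions: the points share library, depth and group, and no p is attached.

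**Figure D5:**
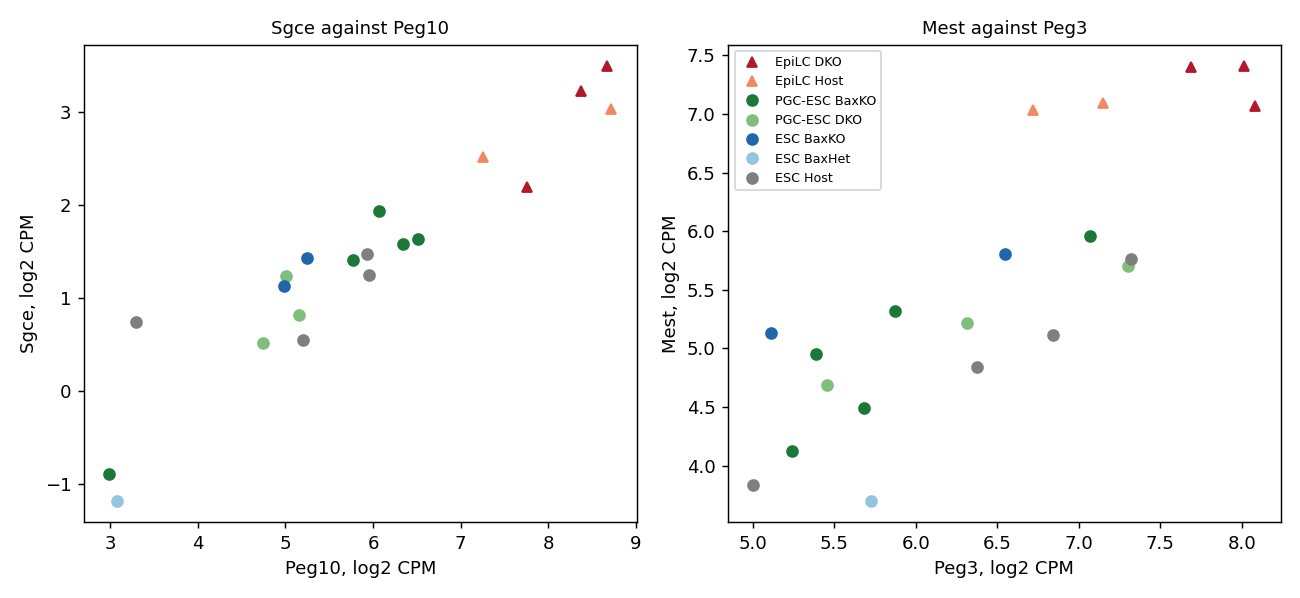
Log2 CPM of Sgce against Peg10 (left) and of Mest against Peg3 (right) in the 20 libraries (triangles, EpiLC; circles, stem cell lines; colours, groups). On the left PGC-ESC BaxKO 2 and ESC BaxHet are low in both genes and the EpiLC libraries high in both; on the right the EpiLC libraries lie above the stem cell libraries in Mest.

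For each gene, the pair of tested genes with the highest Pearson r over all 20 libraries was also looked up, a measure into which the EpiLC change enters. For Peg10 and Sgce the closest gene was the other of the pair (r = 0.941), followed by Foxa1 (0.912) and Fgfr2 (0.865). Nnat was closest to A930024E05Rik (0.983) and Lrrc3 (0.980), and Inpp5f to Brsk2 (0.956) and Stxbp5 (0.947). Mest was closest to Arhgap28 (0.939) and Fbxl7 (0.925), and Ndn to Halr1 (0.929) and Plaat3 (0.921). Usp29 was closest to the glycolytic enzyme genes Eno3 and Pkm (0.891 for each), and Peg3 to 2610035F20Rik (0.896) and Gpd2 (0.862). Over the 15 stem cell libraries alone, Peg10 and Sgce stayed each other's closest gene (0.870), and Peg3 stayed closest to 2610035F20Rik (0.862). All other partners named here were replaced, for Usp29 by Nacc1 (0.939) and Slc25a3 (0.931).

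Of 18 other paternally expressed genes tested, 5 were called higher and 5 lower in EpiLC DKO, where 25.1% of all tested genes were called higher and 22.5% lower. In EpiLC Host 7 were called higher and 5 lower, where 22.4% and 21.7% of all tested genes were. The shares of the list lie near those of all genes, apart from the higher calls in EpiLC Host. Their median log2 fold changes were 0.63 and 0.34, against 0.01 and -0.03 over all tested genes. Magel2, a MAGE family gene beside Ndn, was 5.22 ± 0.69 higher in EpiLC DKO and 3.85 ± 0.59 higher in EpiLC Host. Dlk1, a Notch-related growth regulator, was 5.02 ± 0.80 and 4.26 ± 0.71 higher. Plagl1, a zinc finger growth regulator, was lower, at -3.57 ± 0.53 and -3.49 ± 0.61, and so was Dio3, an enzyme that inactivates thyroid hormone, at -3.06 ± 0.49 and -3.78 ± 0.57. All of these had adjusted p-values of 0.000179 or less.

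Of 16 tested genes in the imprinted domains of the 9, 11 were called higher and 1, Blcap, lower in EpiLC DKO, and 9 higher and Blcap lower in EpiLC Host, with medians of 1.15 and 0.94, above the shares and medians of all genes in that direction. Calcr, the calcitonin receptor gene in the domain of Peg10 and Sgce, was 4.33 ± 0.87 higher in EpiLC DKO and 5.02 ± 0.79 higher in EpiLC Host. Of 12 tested maternally expressed genes, 4 were called higher and 1 lower in EpiLC DKO, and 3 higher and 1 lower in EpiLC Host, with medians of 1.42 and 1.10. The share called higher lies near that of all genes in EpiLC Host and somewhat above it in EpiLC DKO. Cdkn1c, a cell cycle inhibitor, was 2.62 ± 0.40 and 3.34 ± 0.38 higher. In PGC-ESC BaxKO against ESC BaxKO it was the one maternally expressed gene with a call, at -2.27 ± 0.37 (adjusted p = 0.0487).

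Among 11 genes that keep, write or remove DNA methylation, 2 were called higher and 5 lower in EpiLC DKO, and 3 higher and 6 lower in EpiLC Host, with medians of -0.45 and -0.73, beside the shares of all genes given above. Tet2, which oxidises methylated cytosine on the way to its removal, was among the lower ones in both, at -2.73 ± 0.39 and -3.21 ± 0.46 (adjusted p = 2.08e-05 and 2.26e-05). Zfp57, whose protein binds the motif counted in the Mest stretch, was lower, at -3.15 ± 0.23 in EpiLC DKO and -3.14 ± 0.27 in EpiLC Host. The DNA methyltransferase genes Dnmt3a and Dnmt3b were higher, at 3.95 ± 0.39 and 2.82 ± 0.29 in EpiLC DKO and at 2.52 ± 0.35 and 2.90 ± 0.28 in EpiLC Host. Uhrf1, which with Dnmt1 copies methylation after replication, was lower, at -0.82 ± 0.14 and -0.73 ± 0.15 (adjusted p = 0.000108 and 0.000724).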

How the data were processed

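Poly(A) RNA of 20 mouse libraries was measured. The authors deposited whole-number read counts per gene in 1 table of 21361 genes. Per the submitters' processing notes, STAR 2.7.7a and build mm10 were used. The sources used here do not name the counting tool, the annotation or the strand setting. The test was that of edgeR 4.0.16, in R 4.3.3 (quasi-likelihood F test, two-sided, TMM scaling, default filter on low counts, 1 coefficient for each of 7 groups, 13 residual degrees of freedom). The filter left 16363 genes, 8 of the 9 among them, each of which also reached 3.76 CPM or more in a stem cell library. Levels are CPM of the library total; correlations use log2 CPM with a prior count of 2. DESeq2 1.42.0 was an alternative. Totals of 14255399 to 33376660 counts set the precision of low genes. The tests were also run on simulated counts with known changes, in which the libraries of a group were independent. That simulation leaves out the sets of lines described below, so it cannot check p-values where lines are not independent.

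The 9 genes and the gene lists were chosen with earlier results of these data known. From each list up to 4 called genes per comparison with the smallest adjusted p could be named. Blcap, Uhrf1, Peg12, Dusp9, Meg3, Mcmbp and Mkrn3 were chosen after their values were seen. Of the other paternally expressed list, 19 of 22 genes were in the table. The labels name each library as a line, and p-values measure the spread between lines. Chi-square per gene between replicates was 6.72 to 223 over 24 pairs, so no library was counted as a technical repeat of another. That does not show that lines of a group were derived independently. Among PGC-ESC BaxKO lines it was 6.72 to 18 within lines 1, 3 and 4 and 26.1 between lines 2 and 5. Between those sets it was 46.8 to 67.4, so the 5 lines fell into 2 sets over all genes. EpiLC numbers name the parent line, so EpiLC and parent are paired by design; deviations of the same line correlated at 0.0931 to 0.185. In other comparisons shared numbers are names. ESC BaxHet, with 1 library, entered the fit but no comparison.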

Additional observations from a re-analysis of the deposited data

Results flagged for a closer look

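Peg3 in PGC-ESC BaxKO 5 stood at 135.1 CPM, against 39.3 to 59.1 CPM in the other 4 lines of that group, a gap large enough to pass Dixon's 95% value for 5 samples. It was the one such case among 16 checks (8 genes in each of 2 groups of 4 or 5 libraries). Chance gives about 1 in 20 of such checks, so a single case is close to what chance gives. The same library was also the highest of its group in Usp29 (5.19 CPM), Mest (62.5 CPM) and Sgce (3.76 CPM).

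Inpp5f in ESC BaxHet, a library in no comparison, stood at 15.6 CPM, above the highest ESC Host library at 6.97 CPM. It lay beside the ESC BaxKO libraries at 14.4 and 14.5 CPM, which share its strain label.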

How the results depend on the processing

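The count of called genes among the 8 moved by more than 1.5 times in 3 comparisons. In EpiLC Host against ESC Host it was 5, and 3 to 5 when single libraries were left out, with 3 without EpiLC Host 3 (a lone EpiLC Host library is then assumed to vary like the other groups). In ESC BaxKO against ESC Host it was 1, and 0 when only the compared groups were fitted and 0 with the replicate number as a block. In PGC-ESC BaxKO against PGC-ESC DKO it was 3, and 1 both with the replicate block and with the Rn45s set as a term; the cause was not tested. Signs turned only for values that were not called. Usp29 in EpiLC Host stood at -0.27 with only ESC Host 3 and 4 as parents, -0.26 with the cell line as a block, -0.19 with the Rn45s term and -0.032 with the Y-linked covariate, and ran from -0.16 to 0.19 with single libraries left out. Peg10 in PGC-ESC BaxKO against ESC BaxKO, at 0.80, stood at -0.33 with the replicate block. With single libraries left out, Ndn in EpiLC DKO ran from -0.086 to 0.46, and Nnat in PGC-ESC BaxKO against ESC BaxKO, at -0.44, from -0.91 to 0.22. Pairing by parent line changed no other call than that of Usp29 in EpiLC DKO. Peg3 in EpiLC DKO was also not called with the Rn45s term (adjusted p = 0.0548) or the Y-linked covariate (0.0561). Leaving out ESC Host 4 and EpiLC Host 4 together, an alternative chosen after seeing the data, kept 5 called in EpiLC Host. For EpiLC DKO against EpiLC Host no paired analysis was possible because these groups share only number 3. Snrpn, at 11 reads or fewer per library, had too few counted reads to compare.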

Other observations

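ESC BaxHet, which has no replicate, stood at 54.9 CPM for Peg3, 1.55 for Usp29, 8.67 for Peg10, 0.373 for Sgce, 13.5 for Mest, 2.08 for Nnat and 5.56 for Ndn. Its Usp29, Peg10, Sgce and Mest levels were each below both ESC BaxKO libraries.

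Meg3, a maternally expressed long RNA, ran opposite to Ndn among the PGC-ESC BaxKO lines. It stood at 62.8, 54.8 and 174.7 CPM in lines 1, 3 and 4, where Ndn was 17.3 CPM or more, and at 368 and 625.2 CPM in lines 2 and 5, where Ndn was 4.63 CPM or less. These are values of 5 lines, not shown to be independent of each other, with no test.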
